A study of Mus musculus with 4 samples.

Results

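Open chromatin of mouse induced pluripotent stem cells (iPSC) was compared with that of mouse embryonic fibroblasts (MEF) that carry the same strain label, as regions that the iPSC list holds and the MEF list lacks (called gained) and the reverse (called lost). Peaks of each list at most 10 bp apart were joined, which gave 81885 regions in iPSC and 78840 in MEF on chromosomes 1 to 19. These 160725 regions belong to 302876 in the 4 lists of the series, and a region counted as shared when it overlapped a region of the other list by 1 bp or more. By this rule 55146 iPSC regions (67.3%) were gained, 52706 MEF regions (66.9%) were lost, and 26739 iPSC regions overlapped 26134 MEF regions. Gained regions outnumbered lost ones only slightly, and with peaks taken as deposited, without joining, the order turned to 83714 gained and 103871 lost.

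The series used ATAC-seq, in which a transposase cuts accessible DNA and leaves sequencing adapters there, and made 1 library from each of 4 cell populations. MEF and iPSC are both labelled A12 (Mbd3 flox/-), for strain and for transgene, so both carry a floxed and a deleted allele of Mbd3, a subunit of the NuRD chromatin complex. How the iPSC were derived or cultured, how many clones they came from and whether Mbd3 had been recombined in them is not given in the labels. The other libraries, used here only to see whether they hold a gained or lost region, are v6.5 embryonic stem cells (ESC) and an OSKM intermediate of a conversion of fibroblasts to neural stem cells. The intermediate came from Nanog-CreER reporter fibroblasts (B6/129, Rosa26-TdTomato and Col1a-OSKM) that received doxycycline and 4-hydroxytamoxifen until day 9 and were sorted for tdTomato, and OSKM stands for Oct4, Sox2, Klf4 and Myc. Its title and protocol give day 9, and its source field gives day 6. With 1 library a side there is no replicate, no test and no p-value, and nothing below separates the cell types from the 2 libraries.

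Fibroblasts keep open the enhancers of collagen, contractile and matrix genes, many of which bind AP-1, TEAD and RUNX factors. Pluripotent stem cells instead use a network around Oct4 (Pou5f1), Sox2, Nanog and the Klf and Esrrb factors, and they have an epithelial character with E-cadherin at their junctions. CpG-rich promoters are open in most cell types, while distal enhancers and CpG-poor promoters differ more between them.

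The promoters below are shown because their start site had a region in only 1 of the lists and because each holds a motif whose share is given later for all promoters. They are the 250 bases before the start site from RefSeq, build GRCm38.p6, 5′ to 3′ on the gene's strand, and the capitals mark matches to the motifs named for each promoter. Matches to other motifs searched are in lower case: Zfp42 also holds GGAATG, Ankrd1 holds CACCTG and TGTGGT, and Cnn2 holds a Klf motif. Gained promoters are Nanog (chr6:122707239-122707488, plus strand), a homeodomain factor of pluripotency, with GGGCGTGG, a Klf motif, and the E-box CACCTG on its other strand; Zfp42 (chr8:43307010-43307259, minus strand), which encodes the stem cell marker Rex1, with the octamer ATGCAAAT on its other strand, CACCTG and the Klf motif GGGTGTGG on its other strand; Tdgf1 (chr9:110946159-110946408, minus strand), the Nodal co-receptor Cripto, with the Klf motif in 2 copies; and Cldn4 (chr5:134946935-134947184, minus strand), a tight junction claudin, with the AP-1 motif TGANTCA in 2 copies and CACCTG.
Nanog: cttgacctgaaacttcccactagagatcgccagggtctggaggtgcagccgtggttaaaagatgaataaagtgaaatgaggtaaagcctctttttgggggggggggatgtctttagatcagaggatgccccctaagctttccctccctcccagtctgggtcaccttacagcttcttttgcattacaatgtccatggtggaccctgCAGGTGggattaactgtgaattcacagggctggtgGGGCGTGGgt
Zfp42: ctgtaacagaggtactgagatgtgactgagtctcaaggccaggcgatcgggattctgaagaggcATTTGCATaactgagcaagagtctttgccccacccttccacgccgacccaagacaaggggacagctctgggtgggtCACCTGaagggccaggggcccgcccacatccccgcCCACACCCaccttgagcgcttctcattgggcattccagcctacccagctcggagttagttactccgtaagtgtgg
Tdgf1: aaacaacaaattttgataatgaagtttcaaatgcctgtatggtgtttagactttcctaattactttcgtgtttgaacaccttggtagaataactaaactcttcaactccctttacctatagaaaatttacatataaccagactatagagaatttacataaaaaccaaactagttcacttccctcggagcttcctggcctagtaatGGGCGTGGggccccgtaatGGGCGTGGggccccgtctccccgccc
Cldn4: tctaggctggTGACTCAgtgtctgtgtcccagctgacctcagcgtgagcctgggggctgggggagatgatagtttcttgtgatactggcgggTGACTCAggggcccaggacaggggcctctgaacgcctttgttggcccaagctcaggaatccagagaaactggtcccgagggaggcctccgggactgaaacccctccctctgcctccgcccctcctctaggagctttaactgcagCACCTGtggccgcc
Lost promoters are Col6a1 (chr10:76726045-76726294, minus strand), a chain of collagen VI, with TGANTCA; Ankrd1 (chr19:36119845-36120094, minus strand), a target of YAP and TEAD, with the TEAD motif GGAATG in 2 copies; and Cnn2 (chr10:79988350-79988599, plus strand), an actin-binding calponin, with a CArG box, the site of serum response factor.
Col6a1: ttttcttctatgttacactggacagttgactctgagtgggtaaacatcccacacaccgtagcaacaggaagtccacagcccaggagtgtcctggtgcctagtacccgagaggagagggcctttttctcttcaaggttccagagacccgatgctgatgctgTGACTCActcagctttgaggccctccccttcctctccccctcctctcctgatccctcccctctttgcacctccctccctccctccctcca
Ankrd1: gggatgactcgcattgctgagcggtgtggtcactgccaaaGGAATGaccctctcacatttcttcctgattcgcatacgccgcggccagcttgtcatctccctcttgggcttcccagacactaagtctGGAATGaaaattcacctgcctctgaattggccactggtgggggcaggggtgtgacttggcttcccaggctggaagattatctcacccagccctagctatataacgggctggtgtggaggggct
Cnn2: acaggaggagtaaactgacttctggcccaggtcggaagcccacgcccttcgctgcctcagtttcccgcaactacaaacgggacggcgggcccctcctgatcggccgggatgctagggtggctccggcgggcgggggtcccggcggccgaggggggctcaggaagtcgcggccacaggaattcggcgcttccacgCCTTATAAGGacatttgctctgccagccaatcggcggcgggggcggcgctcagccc

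Per library, 128931 iPSC peaks and 155064 MEF peaks covered 70.4 Mb and 73.8 Mb. Peak height is a whole number that the authors' processing wrote, not scaled to depth, so heights of several libraries stand side by side below as description only. A joined region takes the height of its tallest peak, which can lie more than 1 kb from the start site. A site with no listed peak was not measured to be closed: Ywhaz, a 14-3-3 gene that nearly all cells use, had no start-site region in MEF, iPSC or ESC. All 11 fibroblast markers checked had a start-site region in MEF and 5 of 11 in iPSC, but ESC had one at 8 of 11. Of the pluripotency markers 3 of 10 had one in MEF, 10 of 10 in iPSC and 9 of 10 in ESC. Summed start-site heights over the fibroblast markers were 1109 in MEF and 402 in iPSC, and over the pluripotency markers 138 and 2546. Pou5f1 alone gave 1330 of the latter, and the other 9 markers summed to 138 in MEF, 1216 in iPSC and 1052 in ESC. Among markers of other cell types, start-site regions were listed for 4 of 8 myeloid markers in MEF and 3 in iPSC (summed heights 196 and 165), 4 and 5 of 8 endothelial markers (172 and 593), 0 and 1 of 7 keratinocyte markers (0 and 29), 1 and 2 of 7 muscle markers (56 and 78), and 3 and 7 of 7 neural markers (141 and 582). Ptprc and Adgre1 of leukocytes, Pecam1 of endothelium and Krt5 and Krt14 of keratinocytes had none in either list. The part of other cells in the results was not tested. Mbd3 itself had a start-site region in every library, with heights of 327 in MEF, 143 in iPSC, 260 in ESC and 293 in the intermediate; a start-site region does not show the state of a floxed allele.

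Gains and losses lay mostly away from start sites. In a bulk library, a site open in few cells and one weakly open in all cannot be told apart. Within 1 kb of a start site, 16.1% of 15115 iPSC regions were gained (Wilson 95% interval 15.5 to 16.7) and 16.9% of 14908 MEF regions were lost (16.3 to 17.5); intervals here and below cover counting error only. Away from start sites the shares were 78.9% of 66770 and 78.5% of 63932. Regions at start sites made up 4.42% of the gained and 4.79% of the lost regions, against 47.4% of the iPSC regions in both lists. Lost regions were more often inside gene bodies (53.3%) than gained ones (45.4%), and 20.3% of the gained regions lay over 100 kb from any protein-coding gene, against 13.2% of the lost. The lists shared 23.4 Mb of the 120.7 Mb that either covered, a Jaccard index of 0.194.

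Tall regions were more often in both lists. The gained share was 78.7% in the lowest of 4 height groups of the iPSC list and 46.7% in the tallest, and the lost share of the MEF list went from 81.6% to 40.3%. ESC held 52.4% of the gained regions (52.0 to 52.8) and 9.26% of the lost (9.01 to 9.51), and the intermediate held 25.9% and 13.2%. The ESC share of gained regions went with their height: ESC held 33.0% of those in the lowest group and 83.1% of those in the tallest, while for lost regions the same shares were 8.42% and 10.7%. In the intermediate, 44.2% of the tallest gained group and 19.4% of the tallest lost group were listed. Neither of these libraries held 41.4% of the gained and 81.9% of the lost regions. Both carry other strain labels than MEF and iPSC, and strain and cell type cannot be told apart in these shares.

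**Figure D1:**
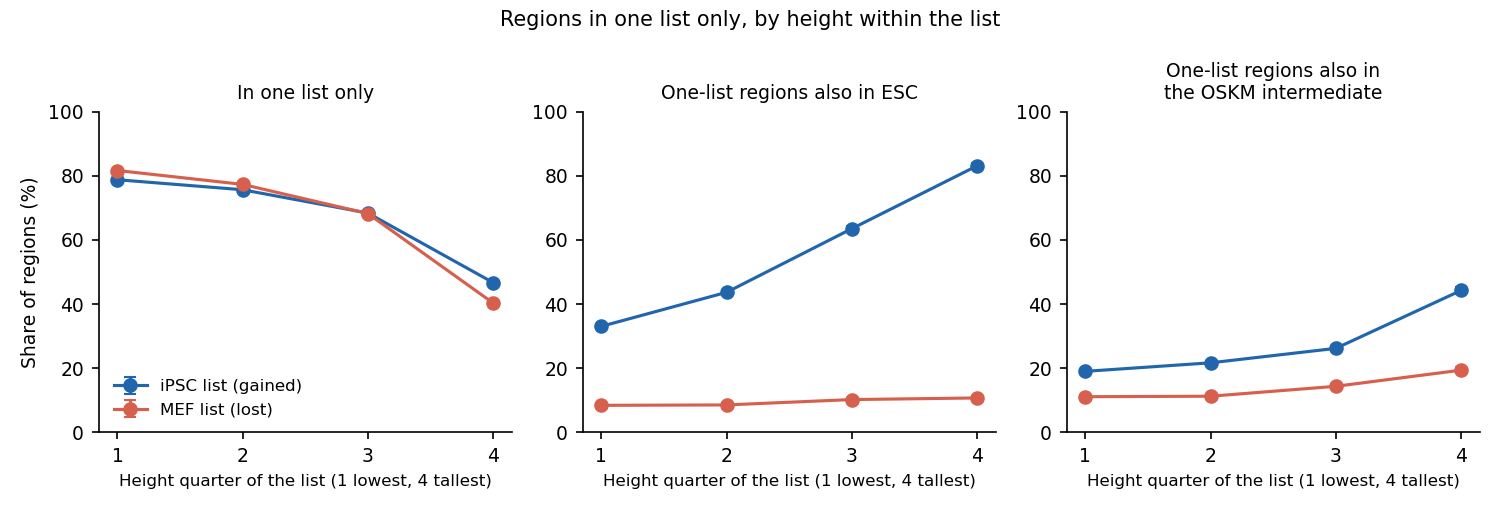
Share of regions in 1 list only (left), and share of those also held by ESC (middle) and by the OSKM intermediate (right), against the height group within the iPSC list (blue) or the MEF list (red), with Wilson 95% intervals mostly smaller than the points. ESC held 83.1% of the tallest gained regions and 10.7% of the tallest lost regions.

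Of 20661 protein-coding genes, 1335 (6.46%) had a start-site region in iPSC and none in MEF, and 1145 (5.54%) the reverse. This order turned in the taller 50% of each list (1677 and 1766). In both lists 12306 genes (59.6%) had one, and 5875 (28.4%) had one in neither. For 4205 genes without a known start site these counts take either gene end. Among genes with a known start site, 995 gained and 812 lost a region. The genes that gained a start-site region had a median height of 61 there, those that lost one had 45, and genes with both had 113 in iPSC. ESC held a start-site region at 78.5% of the gained genes and at 45.4% of the lost genes, and the intermediate at 48.8% and 38.8%. Thus 493 of the 1145 lost genes had a start-site region in MEF only. After Pou5f1, the tallest gained start-site regions belonged to Gm3667 (1067), Gm8108 (742), Car3, a carbonic anhydrase (672) and Filip1 (636), with ESC heights of 267, 192, 189 and 224. Gm3667, Gm8108 and LOC115488283 (604) are predicted genes on chromosome 14; no source used here says how reads from similar copies were placed, so their heights are uncertain. Zfp345 (549), Scg3 (545, a secretogranin), Pjvk (499, pejvakin, a hearing gene) and Rbmxl2 (484, a testis RNA-binding protein) followed, and ESC listed a region at each. Among the losses, Clec11a, a secreted growth factor of the lectin family, had 360 in MEF and none in iPSC, yet 306 in ESC and 361 in the intermediate. Zfp574 had 343, 0, 290 and 340 in that order. These were the tallest losses, and at both the iPSC list stood alone in having no region. Cfap157 (242), Cnn2 (229), Lgals1 (207, galectin-1), Sirpa (206, the receptor of CD47) and Slc7a12 (204) came next, and ESC had no region at Cfap157, Sirpa or Slc7a12. Clec2h (183) and P3h4 (183) followed, with ESC heights of 27 and 52. The start sites of Car3, Zfp574, Cfap157, Lgals1, Sirpa, Slc7a12 and P3h4 are not known. Their regions can lie at either gene end, and at different ends in different libraries.

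In the core pluripotency list 13 of 18 genes gained a start-site region and none lost one, and 103 gained against 16 lost regions were assigned to them, each region going to its nearest gene within 100 kb. Over all genes 6.46% gained and 5.54% lost a start-site region and 59.6% had one in both lists, a reference for this list and those below. To all genes together 43959 gained and 45743 lost regions were assigned, the reference for the region counts. The median gene of the core list had 3.5 more gained than lost regions, and the median over all genes was 0. Zfp42 had no start-site region in MEF and heights of 400 in iPSC, 219 in ESC and 140 in the intermediate. Its 13 gained regions stood against 0 lost, and upstream of the start site a second tall region of 228 had 133 in ESC. Nanog had 0 in MEF, 152 in iPSC, 105 in ESC and 65 in the intermediate. Fbxo15, an F-box gene, had 0, 242, 126 and 184 in that order. L1td1, which encodes a LINE-1-derived RNA-binding protein, had 0, 239, 206 and 200, so at all 4 genes MEF was the only library without a region. Dppa5a (155 in iPSC, 111 in ESC), Dppa2 (54 and 67) and Dppa4 (51 and 58), developmental pluripotency-associated genes, had no region in MEF or in the intermediate. Fgf4, the growth factor that Oct4 and Sox2 control, had 137 in iPSC and 111 in ESC, and Sall4, a zinc finger factor, 83 and 138. Tdgf1 had 88 and 136, and Lin28a, which blocks let-7 processing, 44 and 108. Gdf3, a TGF-beta family ligand next to Nanog, had 106 in iPSC, 73 in ESC and 202 in the intermediate. It also had a tall lost region, chr6:122615591-122616580, with a height of 370 in MEF and no region in iPSC, ESC or the intermediate. Sox2, Utf1, Trim71 and Otx2 had a start-site region in both lists, with 71, 32, 36 and 38 in MEF and 173, 87, 59 and 44 in iPSC. Around Sox2 all 10 one-list regions within 60 kb of the start site were gained, the tallest 172 high and 104 in ESC. Lin28b had no start-site region in either list but a gained region of 186 in its body.

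The start site of Pou5f1, which encodes Oct4, lies in the longest region of the iPSC list, chr17:35497551-35515250, 17700 bp long and made of 25 peaks. The heights of these peaks ranged from 12 to 1330 with a median of 117, against 39 over all iPSC peaks, and 5 of the 475 iPSC peaks over 500 high lay in it. The tallest stood 2.0 kb before the start site, and the region ran from 8.48 kb before it to 9.22 kb after it, past both ends of the gene. No peak of MEF, ESC or the intermediate overlapped it. The only other iPSC region of 10 kb or more, chr3:6297261-6307990, had a top height of 101 and was gained too. The gain at Pou5f1 thus has no counterpart in ESC, the other pluripotent library, unlike the gains at the other 12 core genes. The labels do not say whether the iPSC carried added Pou5f1 sequence, and whether these peaks come from the native locus was not tested, so the gain and its heights are uncertain.

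**Figure D2:**
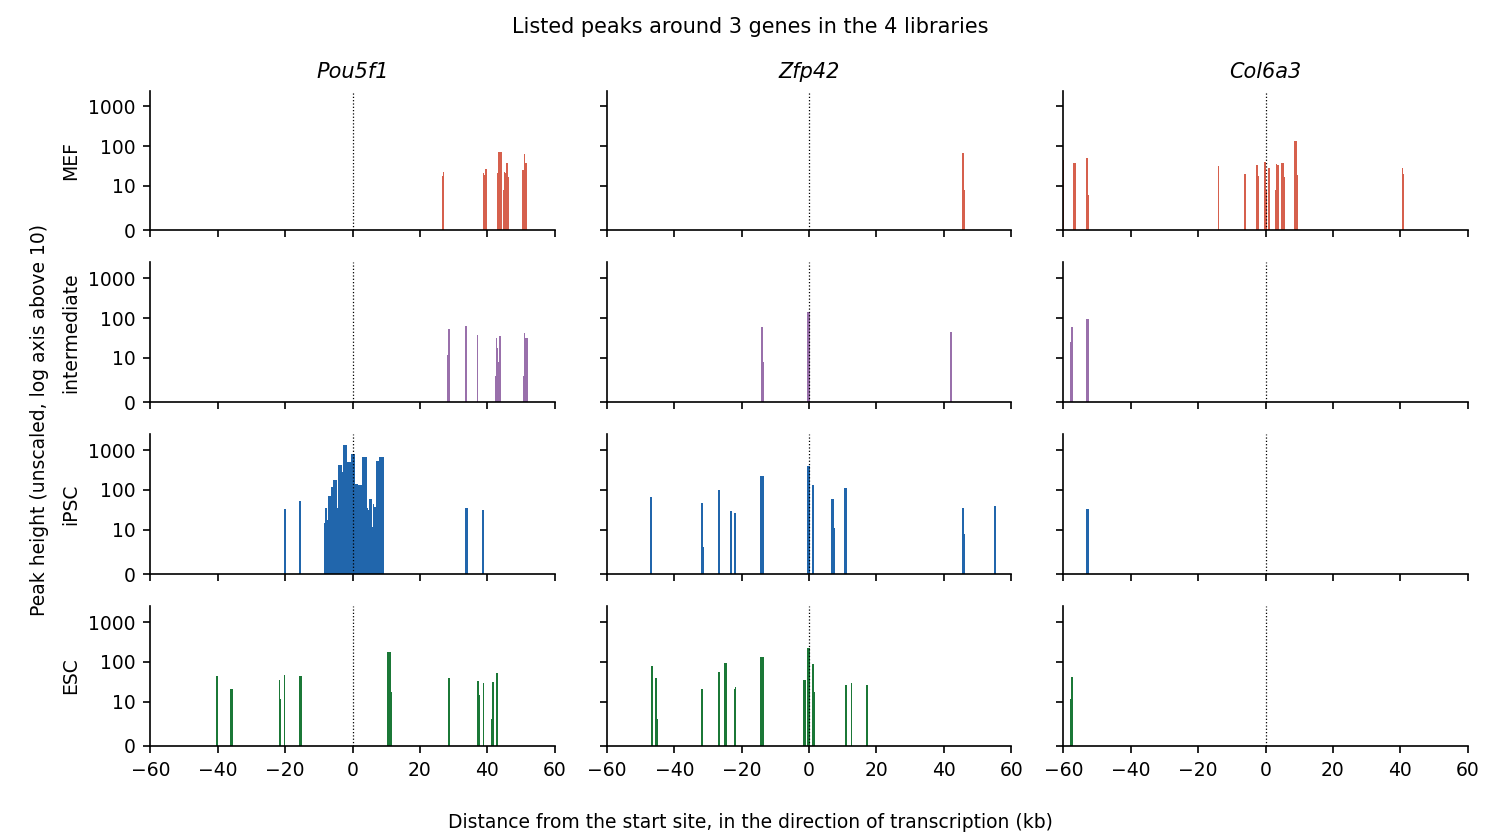
Height of each listed peak (unscaled, log axis above 10) against distance from the start site in kb for Pou5f1, Zfp42 and Col6a3, with 1 row per library. The block of 25 joined peaks at Pou5f1 is in iPSC only, the start-site peak of Zfp42 is in iPSC, ESC and the intermediate and not in MEF, and within 20 kb of the Col6a3 start site peaks are in MEF only.

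Genes of the naive state had a start-site region in both lists more often than those of the core list, at a share near the 59.6% over all genes. Of 16 genes 5 gained a start-site region, none lost one and 10 had both, and 147 gained stood against 48 lost regions, with a median net of 7.5. Zfp42 and Fbxo15, among these gains, are in the core list too. With each gene counted once, the core and naive lists together had 32 genes, of which 16 gained a start-site region, and 224 gained and 63 lost regions. Nr5a2, a nuclear receptor that can stand in for Oct4 in reprogramming, had 0 in MEF, 101 in iPSC, 125 in ESC and 180 in the intermediate, with 21 gained and 5 lost regions. Prdm14, a regulator of naive pluripotency, had 74 in iPSC only, but its tallest gained region, away from the start site, was 208 in iPSC, 103 in ESC and 117 in the intermediate. Tcl1, a co-activator of Akt, had 78 in iPSC, no region in ESC and 48 in the intermediate. Tfcp2l1 had 41 in MEF, 201 in iPSC, 88 in ESC and 66 in the intermediate, and a gained region near it reached 347 in the intermediate against 117 in iPSC and 46 in ESC. Klf5 (15 gained, 4 lost) and Tet2, a 5-methylcytosine oxidase (17 and 5), had many gained regions although their start sites had a region in both lists. Esrrb, an orphan nuclear receptor, had 14 gained and 2 lost regions. It counted as having both because its first start site had a region of 66 in iPSC only and a later one a region of 35 in MEF only, and 61 of the 12306 genes with both had them at different start sites in this way. No ESC or intermediate region overlapped the Esrrb region of 66. Among the pluripotency markers above, Esrrb thus counted in MEF and ESC through later start sites. Klf2 (1 and 5), Tbx3 (6 and 9) and Stat3 (0 and 3) leaned the other way. At its start site Klf2 had 282 in MEF and 184 in iPSC, and Stat3, the mediator of LIF, had 374 and 160.

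In the LIF, Nodal and FGF list 2 of 20 genes gained a start-site region (Tdgf1 and Cfc1, Nodal co-receptors) and Lefty2, a Nodal antagonist, lost one of 29. That is 10.0% and 5.0% of the list, near the 6.46% and 5.54% over all genes. The list had 91 gained and 77 lost regions, an order that turned without joining (154 and 183). Lifr, the LIF receptor, had 18 gained and 7 lost, with a gained region of 262 that was 120 in ESC. Spry2, an FGF antagonist, had 12 and 3, and Bmp4 10 and 2. Socs3, a feedback inhibitor of STAT signalling, had 0 gained and 11 lost regions, and its start-site height was 240 in MEF and 62 in iPSC. Jak1 had 5 and 14. All 16 genes of DNA methylation and silencing had a start-site region in both lists (Dnmt3l at different start sites), against 59.6% of all genes. Their heights in MEF ran from 30 (Dnmt3l) to 327 (Mbd3). Their 57 gained and 36 lost regions include 17 gained at Tet2, and Dnmt3a had 4 gained and 8 lost; without joining the list stood at 88 gained and 91 lost.

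Epithelial genes gained start-site regions at 12 of 25 members and lost none, and their 68 gained and 38 lost regions gave a median net of 1. Cdh1, E-cadherin, had 0 in MEF, 90 in iPSC, 157 in ESC and 224 in the intermediate. Esrp1, an epithelial splicing factor, had 0, 227, 148 and 179, and Ocln, occludin, 0, 168, 86 and 80. Crb3 (126), Cldn4 (100), Dsp (78, desmoplakin), Marveld3 (75), Spint1 (63), Cldn6 (58), Cldn7 (56), Grhl2 (50) and Krt18 (27) were also listed in iPSC and not in MEF. ESC held a start-site region at all 12 and the intermediate at 11, the exception being Krt18. Regions away from the start sites did not all follow: Cdh1 had 4 gained and 5 lost regions and Cldn4 2 and 6. Epcam had 36 in MEF and 99 in iPSC, and Grhl1 had 317 and 220, so part of the list was already listed in MEF.

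Genes of other lineages gained start-site regions as well. The gained shares were 46.7% of the germline, 35.3% of the neural and 25.0% of the trophoblast and endoderm list, against 6.46% over all genes. Among 15 germline genes 7 gained one and none lost one: Sycp3 of the meiotic chromosome axis (151), Mael (114) and Asz1 (84) of the piRNA pathway, Ddx4, the germ cell helicase Vasa (104), Dnd1 (57), Nanos3 (36) and Tdrd1 (33). ESC held a region at 5 of the 7, not at Asz1 or Nanos3, and the intermediate at Dnd1 only. Dazl, a germ cell RNA-binding protein, had 177 in MEF and 534 in iPSC, and Prdm1 had 17 gained and 3 lost regions. In the neural list 6 of 17 gained one and none lost one. Neurod1, a proneural factor, had 0 in MEF, 288 in iPSC, 179 in ESC and 48 in the intermediate. Pax6, the eye and forebrain factor, had 0, 150, 79 and 45, with 21 gained and 0 lost regions, one of them 363 high. The ESC height of 79 came from a peak 11.185 to 12.425 kb after the first start site. Near the first start site ESC peaks reached 51. Sox1 (102), Olig2 (95), Nkx2-2 (93) and Hes5 (38) were the other gains. Of 16 trophoblast and endoderm genes 4 gained a start-site region, namely Sox17 (380 in iPSC, 89 in ESC), Foxa2 (203 and 52), Sox7 (47 and 54) and Cdx2 (30 and 35), and Gata4 lost one of 27. Foxa2, a pioneer factor of endoderm, had 22 gained and 4 lost regions. A listed region does not show that a gene was transcribed.

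**Figure D3:**
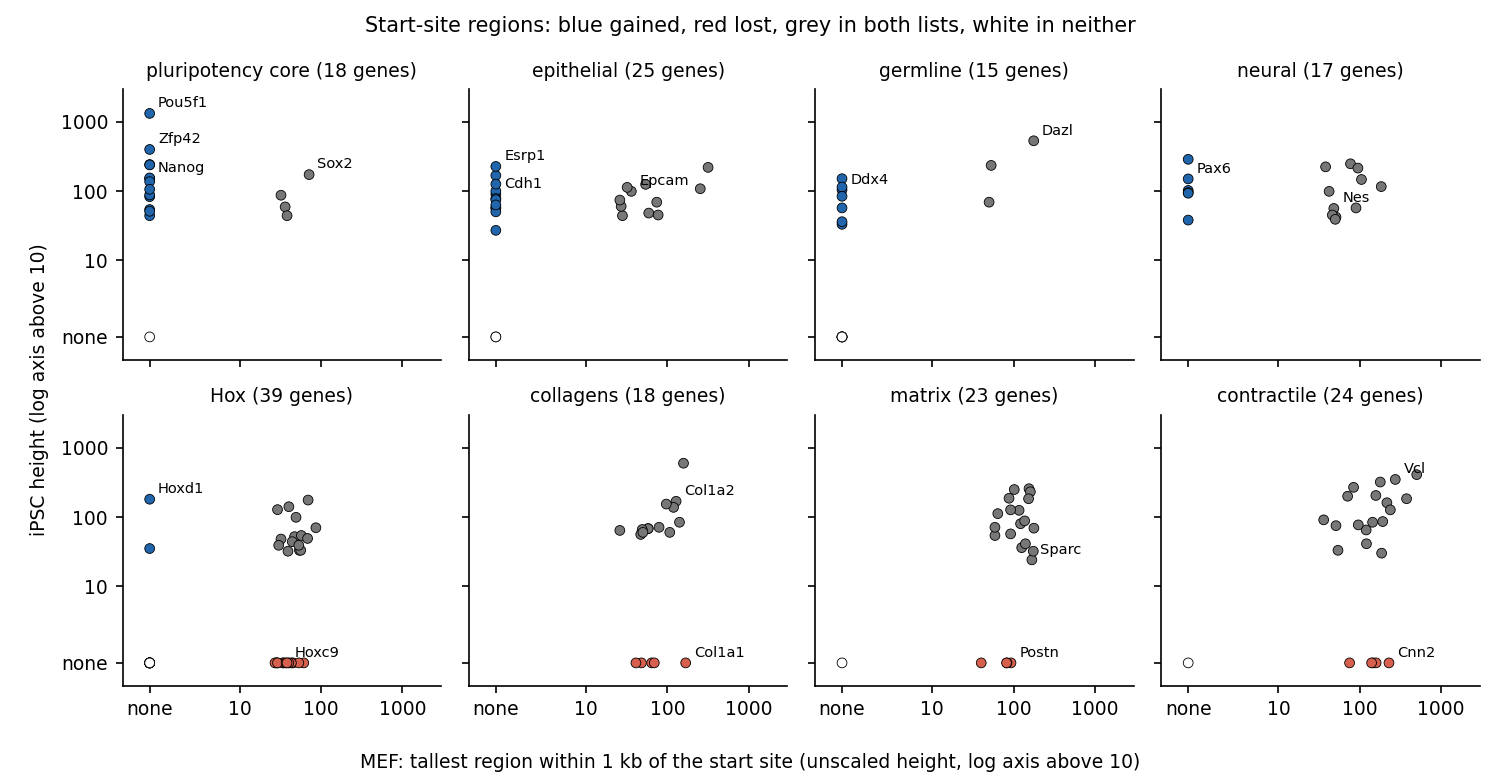
Tallest region within 1 kb of the start site in iPSC against MEF for the genes of 8 lists (unscaled heights, log axes above 10); blue points had a region in iPSC only, red in MEF only, grey in both and white in neither. The pluripotency, epithelial, germline and neural panels have blue points and no red, and the collagen, matrix and contractile panels have red and no blue.

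Collagen, matrix and contractile genes together lost start-site regions at 14 of 65 members and gained none, and ESC held a region at 8 of these 14. The lost share was 21.5%, against 5.54% over all genes. They had 186 gained and 631 lost regions, against 43959 and 45743 over all genes. Of the 65 genes 49 had a start-site region in both lists, against 59.6% of all genes. Among 18 collagens, 5 lost a start-site region and 17 had more lost than gained regions, with a median net of -6. Of all genes 35.3% had more lost than gained regions. Col1a1, the main chain of fibrillar collagen, had 168 in MEF, 0 in iPSC, 51 in ESC and 138 in the intermediate, with 0 gained and 9 lost regions. Both gene ends stood in for the start site of Col1a1. No ESC or intermediate region overlapped the MEF region of 168, so the heights of 51 and 138 belong to other regions. The intermediate carries Col1a-OSKM by its label, and whether its height of 138 is related to that transgene was not tested. Col16a1 (69), Col6a1 (64), Col3a1 (48) and Col6a3 (41) also lost theirs, and of these 4 ESC had a region at Col16a1 only. Col5a1 (0 gained, 24 lost), Col6a3 (0 and 19), Col4a1 (1 and 18) and Col4a2 (0 and 17) had the most losses. Col4a1 and Col4a2 start next to each other and share 1 start-site region. Col3a1 went against the list, with 4 gained and 3 lost regions, one gained region being 249 in iPSC and 121 in ESC. Col11a1 kept a start-site region of 158 in MEF and 601 in iPSC.

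Of 23 matrix genes 4 lost a start-site region: Postn, periostin (93), Mmp14, a membrane-bound metalloproteinase (83), Mfap5 (82) and Eln, elastin (40). The list had 54 gained and 170 lost regions. Fbln2, a fibulin, had 1 and 21, with a lost region of 192, and Mmp2 had 5 and 10, with one of 231. Tnc, tenascin C, had 4 and 10, the tallest lost one 218 high. Sparc kept its start-site region, at 168 in MEF, 24 in iPSC and 71 in ESC. Fn1, fibronectin, and Fbln5 (4 and 3) were the 2 members with more gained than lost regions. Fn1 had 11 gained and 3 lost and start-site heights of 155 in MEF and 257 in iPSC.

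Contractile and adhesion genes had 85 gained and 275 lost regions, and 5 of 24 lost a start-site region. Cnn2 had 229 in MEF, 0 in iPSC, 42 in ESC and 40 in the intermediate. Its MEF region is 7300 bp long and overlaps an iPSC region away from the start site. The MEF peak of 229 lies there, at -4.729 to -3.189 kb, where iPSC also had a peak of 74. At the start site itself the MEF peak was 63 high, so the loss there is lower than 229. Tagln, the smooth muscle protein transgelin, had 159, 0, 41 and 0, and Acta2, smooth muscle actin, 146, 0, 0 and 0. Pxn, the focal adhesion scaffold paxillin, had 140, 0, 92 and 104, and Cnn1 75, 0, 36 and 0. Acta2 was thus the 1 of the 5 with no region in any library but MEF, and it had 0 gained and 7 lost regions. Tpm1, a tropomyosin, had 0 and 18, Lpp 18 and 43, Tns1 8 and 31, and Myh9, non-muscle myosin, 8 and 19. Tns3 was near balance, with 27 gained and 24 lost.

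Signalling genes of the fibroblast state kept most of their start-site regions and had more lost than gained regions. The TGF-beta and PDGF list had 94 gained and 189 lost regions, and 2 of its 21 genes lost a start-site region, Pdgfb (75) and Pdgfrb (72), a ligand and a receptor of platelet-derived growth factor. Smad3, the transducer of TGF-beta, had 0 gained and 25 lost regions and kept a start-site region of 167 in MEF and 43 in iPSC. Smad6 (3 and 17) and Smad7 (4 and 11) leaned the same way, and Ltbp1 (25 and 18) and Pdgfra (8 and 4) the other. In the AP-1, Tead and Yap list 20 of 22 genes had a start-site region in both lists (59.6% over all genes). Ankrd1 lost one of 127, and 56 regions were gained and 117 lost. Lost start-site regions are 9.52% of the TGF-beta and PDGF list and 4.55% of this one, not far from the 5.54% over all genes. Jun had start-site heights of 363 in MEF and 564 in iPSC, with 4 gained and 11 lost regions, and Fosl2 325 and 141, with 1 and 7. Amotl2 had 2 gained and 13 lost, and Tead1 10 and 16. The intermediate listed 34 of the 117 lost regions of this list (29.1%), against 13.2% of all lost regions. This share is not particular to the list: it was 40% for the housekeeping, 33.3% for the growth arrest and 31.6% for the epithelial list. In the remaining lists it was lower.

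Transcription factors of mesenchyme were split. Of 27 genes 22 had a start-site region in both lists (59.6% over all genes), Meox2 (92) and Tcf21 (36) gained one, and Foxf1 (52) and Runx2 (41) lost one. The list had 136 gained and 170 lost regions, against 43959 and 45743 over all genes. Gains and losses of a start-site region are each 7.41% of the list, near the 6.46% and 5.54% over all genes. Runx1 had 3 gained and 26 lost regions, Runx2, the factor of bone formation, 8 and 18, and Snai1, a repressor of Cdh1, 0 and 12. Ebf1 had 27 gained and 15 lost regions, and Zeb2 13 and 15. Among 39 Hox genes, which carry positional identity, 13 lost a start-site region, 2 gained one (Hoxd1 at 181 and Hoxc12 at 35), 15 had both and 9 had neither. The lost and gained shares were 33.3% and 5.13%, against 5.54% and 6.46% over all genes. The lost ones were low, from 27 (Hoxb6) to 61 (Hoxa9) in MEF, and ESC held a region at 8 of the 13. At Hoxd13 the heights were 141 in iPSC and 40 in MEF, at Hoxd11 128 and 29, and at Hoxc13 176 and 69.

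**Figure D4:**
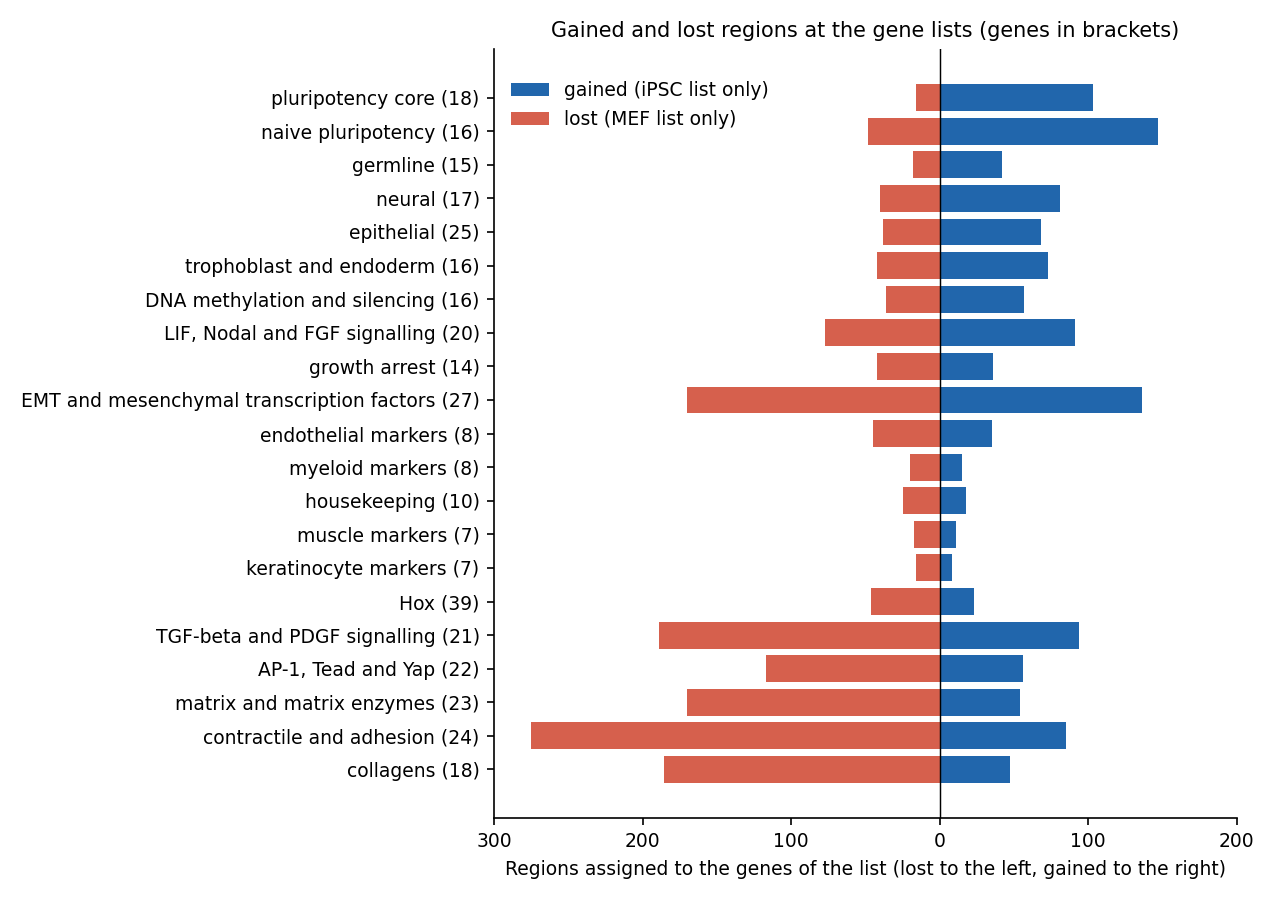
Number of regions in the iPSC list only (blue, right) and in the MEF list only (red, left) assigned to the genes of each list, with the number of genes in brackets. The pluripotency core stands at 103 gained and 16 lost, and the collagens at 47 gained and 186 lost. Over all genes, not drawn, 43959 gained and 45743 lost regions were assigned.

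Cell cycle and housekeeping genes were set beside these lists. All 14 growth arrest genes had a start-site region in both lists, against 59.6% of all genes. They had 36 gained and 42 lost regions, against 43959 and 45743 over all genes. Cdkn2a, whose products Ink4a and Arf limit reprogramming, had 99 in MEF and 206 in iPSC. For 10 housekeeping genes the counts were 18 and 25, of which 15 and 11 lay at Ywhaz, so the others leaned to loss. Of the 10 genes 1 had more gained, 4 had more lost and 5 had equal numbers. Actb had 184 and 172 at its start and Gapdh 219 and 117. Markers of other cell types had 15 gained and 20 lost regions (myeloid), 35 and 45 (endothelial), 8 and 16 (keratinocyte) and 11 and 17 (muscle). Erg, an endothelial factor, made up 19 of the endothelial losses, and Csf1r (78) and Lyz2 (48) of the myeloid markers lost a start-site region.

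Over all genes, 6708 (32.5%) had more gained than lost regions and 7290 (35.3%) more lost than gained. The most gained regions lay at Pde4d, a cAMP phosphodiesterase (64), St6galnac3 (54), Tenm3 (51), Sox5 (50), Ptprn2 (47), Robo1 (46), Magi2 (45), Macrod2 (44), Etl4 (41) and Myo10 (39). Most are long: Macrod2 spans 1998 kb, Magi2 1485 kb and Pde4d 1302 kb, so room to hold regions differs between genes. Among the genes with the most lost regions were Nav2 (48), Dlg2 and Lpp (43 each), Auts2 and Macrod2 (39 each), Sox5 (37), Gse1 (36), Agap1 and Cacna1c (33 each). Sox5 and Macrod2 are among both sets of 10, with 50 gained and 37 lost and with 44 and 39. Per length of the gene body, among genes with at least 5 regions of a kind in it, Mansc4, Zfp42, Jag1 (a Notch ligand) and Pax6 led the gains and Nbl1 (a BMP antagonist), Zyx (zyxin), Psd and Mxra7 the losses. Jag1 had 13 gained and 0 lost regions and Mxra7 0 and 11.

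The tallest one-list regions were often far from start sites. The tallest gained region, chr11:3190721-3198730 in Sfi1, reached 9486 and was in no other list. Other long gained regions in Sfi1 were 704 and 417 high, the latter with 277 in ESC. How reads from similar sequences were placed is not known here either, so these heights are uncertain. A region at chr6:3182321-3184250 reached 1665 and was 460 in ESC and 268 in the intermediate. Of the 10 tallest gained regions only those at Pou5f1 and Gm3667 lay at a start site; others lay in Smco2 (1065) and Cftr (1032) and near Klf12 (965), and ESC held 8 of the 10. The tallest lost regions were at chr14:19277801-19278710 (1071, with 298 in ESC), in Kcnh1, a potassium channel gene (1050), near Vmn1r2 (1045) and in Ror2, a Wnt receptor gene (754). The region in Ror2 was 758 in ESC and that in Immp2l was 621 in MEF and 638 in ESC, so iPSC lacked them and ESC did not. The regions in Kcnh1 and near Vmn1r2 were in MEF only.

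Neighbouring regions formed runs of 1 kind. A run is a series of regions in 1 list with no shared or opposite region between them, and runs of 10 or more numbered 446 for gains and 175 for losses. The longest gained run had 80 regions over 1558 kb, chr13:65310891-66869150, around Zfp640 and 13 other genes, most of them predicted models; ESC held 60 of its regions and the intermediate 1. The next had 62 regions over 1722 kb, chr12:113487491-115209820, with Adam6a and Adam6b, of which ESC held 45 and the intermediate 20. How reads from similar sequences were placed is not known for these runs either, so their region counts are uncertain. The longest lost runs had 24 regions each. One, chr11:82014781-82235890, holds the chemokine genes Ccl2, Ccl7, Ccl11, Ccl12, Ccl8 and Ccl1, and ESC and the intermediate each held 2 of its regions. The other, chr1:90633541-90858230, holds Col6a3, and the intermediate held 1 of its regions and ESC none. Runs of 22 lay at Aagab and Smad3 and at Rbfox3 and Enpp7, and runs of 20 at Foxl1 and at Ptpn1 and Ripor3. The longest lost runs spanned 221 kb and 225 kb, less than the longest gained ones.

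Among chromosomes, the gained share of all one-list regions was lowest on chromosomes 19 (39.6%) and 11 (41.7%) and highest on chromosome 1 (55.6%). As a description over 19 chromosomes of the same libraries, this share had a Pearson r of -0.67 and a Spearman rho of -0.71 with protein-coding genes per Mb, and r was -0.65 over 17 without the chromosomes farthest from the median gene density.

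Promoter sequence differed between the classes. In the 300 bases around the start site (RefSeq, GRCm38.p6, both strands, 20084 promoters matched by gene), promoters with a region in both lists had a median of 22 CpG, gained ones 9, lost ones 6 and those with neither 2. The AP-1 motif TGANTCA was in 13.2% of 1133 lost promoters (11.4 to 15.3), 5.91% of 1337 gained ones (4.77 to 7.30), 11.7% of promoters with neither (10.9 to 12.5, overlapping the lost interval) and 7.06% of all. CACCTG, an E-box that Snai and Zeb repressors can bind, was in 30.7% of the gained (28.3 to 33.3), 21.0% of the lost (18.7 to 23.5), 17.5% of those with both and 20.04% of all promoters. Those with neither held it at 22.4%. In promoters with at most 5 CpG, AP-1 was in 20.7% of the lost (17.4 to 24.4), 6.22% of the gained (4.28 to 8.96) and 12.5% of those with neither. In the band of 6 to 15 CpG the shares were 9.12%, 6.09% and 8.90%, and with 16 CpG or more it was in 3.70% of the lost and 5.37% of the gained. CACCTG was more frequent in gained than in lost promoters in each CpG band, at 28.7% and 21.5%, 29.9% and 21.7%, and 33.9% and 18.9% from the lowest band to the highest. The intervals of the lower bands overlapped (24.6 to 33.2 and 18.1 to 25.2 in the lowest). Promoters with neither held it at 21.6%, 25.6% (23.0 to 28.5) and 28.7% (21.7 to 36.8). Above the lowest band these intervals overlapped those of the gained promoters (26.0 to 34.0 and 29.5 to 38.6). A gene can have several promoters, so promoters are not independent of each other. The Runx motif TGTGGT was in 20.5% of the lost and 14.7% of the gained, but in 21.3% of promoters with neither. Klf motifs (GGGTGTGG or GGGCGTGG, which can overlap the Runx motif) were in 8.45% of the gained, 6.00% of the lost, 14.0% of those with both and 10.4% of all. The octamer was rare, at 2.09% of the gained, 0.971% of the lost and 1.67% of all. GGAATG was in 13.7% of the gained, 17.1% of the lost, 16.6% of promoters with neither and 13.4% of all, and the CArG box in 2.17%, 1.77% and 1.43%. A match is a run of letters and not a measured binding site.

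**Figure D5:**
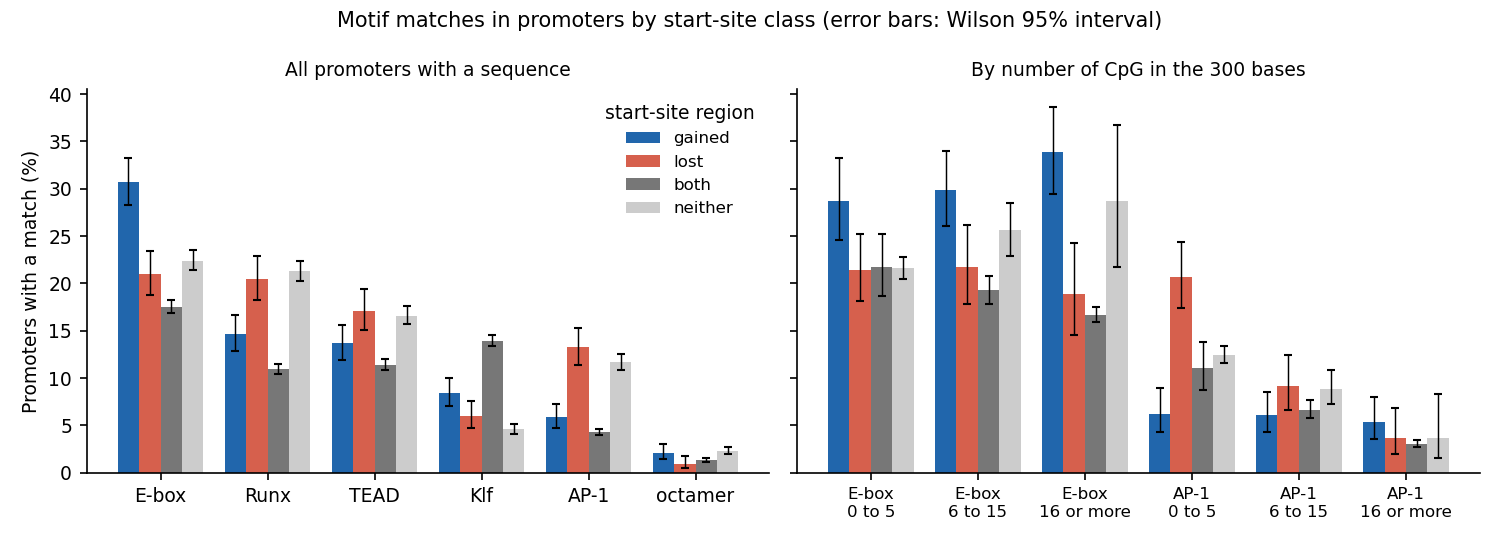
Share of promoters with a motif match by start-site class, for all promoters (left) and within bands of CpG count for the E-box CACCTG and AP-1 (right), with Wilson 95% intervals. E-box matches were in 30.7% of gained and 21.0% of lost promoters, and AP-1 matches in 13.2% of lost promoters and, in the lowest CpG band, 20.7%.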

How the data were processed

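Chromatin accessibility was measured in 4 libraries (50000 cells, transposed for 30 min at 37 °C, 12 PCR cycles, per the labels). Bowtie2, Picard, CASAVA 1.8.2, MACS 1.4.2-1 and build mm10 appear in the submitters' processing notes; their roles and settings are not stated there. The deposited peak lists give start, end, summit and height per the file headers. Height is the authors' unscaled signal per peak with a minimum of 5; read depth is unknown. It was used where a peak score had been assumed. Using Python 3.11.15, numpy 2.4.6, pandas 2.3.3 and scipy 1.17.1, peaks at most 10 bp apart were joined (49.2% of gaps in MEF and 36.5% in iPSC), overlapped at 1 bp, and assigned to the nearest protein-coding gene within 100 kb; steps were checked on simulated data. Start sites came from RefSeq promoters for 16456 genes, and both gene ends stood in for 4205 genes. All 375 genes of 21 lists matched, 365 on chromosomes 1 to 19. Other chromosomes were left out. The members and lists were chosen with earlier results of these data known. Genes named are list members with a gained or lost start-site region or the tallest one-list regions (up to 4 per list and direction), the 10 genes with most gained or lost regions, the 10 tallest regions and start-site regions, and genes in the longest runs, some of which are not reported here; others named to show range or contrast, such as Klf2, Fn1 and Tns3, were chosen after their values were seen.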

Additional observations from a re-analysis of the deposited data

Results flagged for a closer look

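Peaks outside chromosomes 1 to 19 were left out of the comparison and were more numerous in iPSC than in MEF. On the X chromosome iPSC listed 3944 peaks, MEF 2148, ESC 3675 and the intermediate 2604. The Y chromosome had 539 peaks in iPSC, 50 in MEF, 391 in ESC and 34 in the intermediate, covering 308 kb in iPSC and 26.4 kb in MEF. Median heights of the Y chromosome peaks were 36 in iPSC and 46 in MEF. These differences have no replicate and were not tested.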

How the results depend on the processing

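Joining decided which side had more regions in 1 list only. Without it 83714 peaks (64.9% of the iPSC list) were gained and 103871 lost, with 45217 iPSC and 51193 MEF regions in both, and the longest runs had 130 gained and 52 lost regions. In the taller 50% of each list 28167 (66.5%) were gained and 26016 (65.0%) lost, with 14173 and 13987 in both, and 1677 genes gained and 1766 lost a start-site region, so the order of these counts turned; this cut removes low regions from the other list too. ESC then held 72.6% of the gained and 20.6% of the lost regions, and the intermediate 36.8% and 23.6%. With an overlap of 50% of the shorter region the gained and lost shares were 68.7% and 68.4%, ESC held 51.4% of the gained and 8.62% of the lost, and the intermediate 25.1% and 11.8%. Without joining, ESC held 11.9% and the intermediate 15.1% of the lost regions. Regions of 500 bp around the summit gave 65.4% gained and 65.0% lost, adding the X chromosome 67.7% gained, joining at up to 100 bp 66.2% lost, and regions away from start sites alone 78.9% and 78.5%, with 14059 and 13751 in both. AP-1 was in 15.5% and CACCTG in 17.5% of lost promoters whose region was in the taller 50% of its list.

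Of 21 lists, 4 changed or lost their direction under an alternative or reached a tie: LIF, Nodal and FGF signalling (154 gained and 183 lost without joining, 42 and 42 in the taller 50%), DNA methylation and silencing (88 and 91 without joining), growth arrest (35 and 34 with joining at up to 100 bp) and the myeloid markers (14 and 12 with assignment within 20 kb). Of the 55 list genes with a gained and 37 with a lost start-site region, 49 and 32 kept that call with a window of 2.5 kb and 41 and 22 in the taller 50% of each list, where 14 and 15 had a region in neither. None took the opposite call. With the window, Cldn6, Crb3, Marveld3, Foxa2, Hes5, Cdh5, Col3a1, Pxn, Des, Hoxa3 and Hoxa9 had a region in both lists. The overlap rule does not enter the start-site counts. No paired analysis was possible because each group has 1 library. The shares by CpG band and a count limited to genes with a known start site were added after the data were seen. That count kept 37 of the 55 gained and 21 of the 37 lost list genes, and the others had no known start site. Depth is unknown, so a missing peak may be a closed site or one too shallow to be called.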
